A study of Arabidopsis thaliana with 15 samples.

Results

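The comparison described here is of salt against mock in Arabidopsis thaliana (ecotype Col-0) by bulk RNA-seq of polyadenylated RNA, with reads counted per gene. Its members are the 3 salt libraries and the 3 mock libraries (replicates A, B and C of each), 6 of the 15 libraries and 2 of the 5 groups of the series, chosen by their labels alone. The salt group was 6-day-old wild-type seedlings exposed to 150 mM NaCl in liquid MS medium for 3 hours, and the mock group was seedlings of the same age and genotype in the liquid medium without added salt. The methods describe a setup in which only the roots touched the liquid, for 5-day-old seedlings that were imaged. For RNA-seq they state that the roots of many 6-day-old seedlings were pooled for each sample, and do not describe the exposure again. The labels name whole seedlings as the tissue and give 0 and 3 hours as sampling times but do not say which sample had which, so the tissue and time of the methods are used here. Of the 24618 genes in the table, 18484 had enough counts to be tested. No source says that the replicates were separate experiments, so a p-value measures the spread between these samples only.

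Salt in the soil draws water out of the root and loads its cells with sodium and chloride. Plants answer the loss of water largely through the hormone abscisic acid (ABA). ABA binds receptors of the PYR1 and PYL family, which then hold back the clade A protein phosphatases (PP2Cs). Kinases of the SnRK2 family are released from these phosphatases and activate transcription factors of the bZIP class, which bind promoters at ABA-responsive elements with the core ACGTG. A parallel branch without ABA acts through DREB and CBF factors, which bind the core CCGAC. Sodium is handled by exporters at the plasma membrane and exchangers at the vacuole, and the endodermis forms a barrier of Casparian strips and suberin. SUMO is a small protein that is attached to other proteins by an E1, an E2 and ligases, and is removed by proteases of the ULP and DeSI families. Conjugation to SUMO is known to change in plants under salt and other stresses.

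Counts per library were 6094503, 6120247 and 12182201 in mock A, B and C, and 9125680, 10119467 and 8718803 in salt A, B and C. A gene at 3 counts, the floor used here, stood at 0.233 to 0.466 CPM (counts scaled to the size of the library) in mock and at 0.32 to 0.357 CPM in salt, and this floor covers counting error only. CPM values are scaled by TMM within the 6 libraries and are not divided by gene length, so they are compared between groups for the same gene only. The log CPM of replicates correlated at 0.975 to 0.988, and that of libraries of different groups at 0.852 to 0.885 (Pearson's r across genes, which are not independent). A gene was called differentially expressed (a DEG) when its p-value in edgeR's quasi-likelihood test, adjusted by Benjamini-Hochberg, was under 0.05 and its level moved by 1 or more on the log2 scale. This gave 1773 up-regulated DEGs (9.59% of the genes tested) and 1449 down-regulated DEGs (7.84%). These shares are the background for the counts of DEGs in each list below. By the adjusted p alone, 41.9% of the genes tested differed between the groups. The libraries of the groups did not overlap for 54.7% of them.

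Large increases outnumbered large decreases. Among up-regulated DEGs, 107 had a log2 fold change between 4 and 6 and 72 one above 6, against 78 and 18 among down-regulated DEGs. The up-regulated DEGs held 4.78 to 5.67% of the counts of a mock library and 16.7 to 20.4% of those of a salt library. Down-regulated DEGs went from 7.64 to 9.18% of the counts in mock to 2.27 to 2.37% in salt. No count was seen in any mock library for 19 of the up-regulated DEGs, and none in any salt library for 9 of the down-regulated DEGs. Scaling matters for small changes: the median log2 fold change over all genes tested was -0.01 here and -0.16 under upper-quartile normalization, where 1515 genes were up-regulated and 1804 down-regulated.

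The libraries did not lie equally far apart. Salt C was the salt library closest to mock in 74.3% of the up-regulated DEGs (1318 of 1773), and mock B was the mock library closest to salt in 57.4% of those with no tie (987 of 1720). Mock B was also closest to salt in 46.7% of the down-regulated DEGs (676 of 1449). As a check of the tissue, root markers were present throughout. The summed level of 3 endodermis genes was 252, 237 and 243 CPM in mock and 409, 408 and 319 CPM in salt, and that of 4 xylem genes was 303 to 330 CPM in mock and 346 to 381 CPM in salt. Markers of stomata and trichomes summed to at most 0.771 CPM in any library, with the guard cell gene FAMA at 0. Another 7 genes, of photosynthesis, summed to 103, 167 and 153 CPM in mock and to 98.1, 66.4 and 33.4 CPM in salt, and 3 of the 7 were down-regulated DEGs (RBCS1A, RBCS2B and RBCS3B). The groups do not overlap for this sum (two-sided exact permutation test, p = 0.1, the smallest that 3 against 3 can give, and 0.225 after adjustment over 9 marker lists). Whether a share of shoot tissue moved with the results was not tested.

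Genes of the ABA pathway changed at most steps, with those of synthesis, phosphatases and targets higher and receptors lower. Among 11 tested genes of ABA synthesis, breakdown and transport, 6 were up-regulated DEGs and 0 were down-regulated, with a median log2 fold change of 1.52. NCED3 (AT3G14440, chromosome 3, 4831286 to 4834015) encodes the dioxygenase that limits the rate of ABA synthesis under drought. It was at 2.64, 3.08 and 1.32 CPM in the 3 mock libraries and at 320, 296 and 230 CPM in the 3 salt libraries. No salt library came near the mock libraries, and the means differed 120-fold. NCED9 and NCED2, of the same family, rose from 0.464 ± 0.266 to 4.86 ± 1.32 CPM and from 0.953 ± 0.8 to 6.82 ± 3.09 CPM (SD, n = 3). ABA1, the zeaxanthin epoxidase at the start of the pathway, rose by 2.06 on the log2 scale (adjusted p = 3.08e-05). The gene for a breakdown enzyme, the ABA 8'-hydroxylase CYP707A1 (AT4G19230, chromosome 4, 10521259 to 10523961), rose too, from 23, 36.7 and 22.1 CPM in mock to 265, 231 and 276 CPM in salt. ABCG25, which exports ABA from vascular cells, rose 2.84-fold (adjusted p = 7.18e-05). In bulk roots, a change in the number of cells that express a gene cannot be told apart from a change in RNA per cell.

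Receptors went the other way. Of the 9 receptor genes tested, 5 were down-regulated DEGs and 0 up-regulated, with a median log2 fold change of -1.95. PYL6 (AT2G40330, chromosome 2, 16844588 to 16846194) was at 142, 84.3 and 158 CPM in mock and at 6.55, 5.22 and 1.98 CPM in salt. Mock B held the lowest mock value, yet it was still far above every salt library, and the change was -4.81 on the log2 scale (SE 0.43, adjusted p = 0.000354). PYR1 (AT4G17870, chromosome 4, 9928587 to 9929875), the founding receptor of the family, fell from 210 ± 37.8 to 54.6 ± 1.74 CPM (SD, n = 3). PYL4 fell from 299, 182 and 269 CPM to 47.5, 39.2 and 25.5 CPM, with the mock B library again lowest among the mock samples. PYL2 and PYL5 fell by 2.22 and 2.19 on the log2 scale. PYL1 and PYL8 were lower without reaching the fold threshold (-0.85 on the log2 scale with adjusted p = 0.00025, and -0.66 with 0.00095). PYL9 alone among the receptor genes was higher with an adjusted p under 0.05, from 19.8 ± 1.24 CPM in mock to 28.9 ± 4.34 CPM in salt (SD, n = 3, adjusted p = 0.00938).

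All 9 clade A PP2C genes were up-regulated DEGs, with a median log2 fold change of 4.15. These phosphatases hold back ABA signaling. HAI3 (AT2G29380, chromosome 2, 12608675 to 12610350), one of the highly ABA-induced members, was at 0.311, 0.308 and 0.155 CPM in mock, below the floor in all 3, and at 169, 134 and 96.7 CPM in salt. The means differed 516-fold, and the related HAI1 rose 87.4-fold. HAI2 had 2 counts over the mock libraries and 812 over the salt libraries, a ratio of 397 after scaling to depth (95% counting interval 110 to 3286). ABI1 (AT4G26080, chromosome 4, 13219915 to 13222376), known from the ABA-insensitive mutant, went from 82.7, 117 and 82.1 CPM to 927, 908 and 687 CPM. HAB2 had the smallest change of the 9, a log2 fold change of 1.69 (adjusted p = 6.98e-06). Among the 10 SnRK2 kinase genes, 4 were up-regulated DEGs and 0 down-regulated. They were OST1 (SNRK2.6), SNRK2.5, SNRK2.7 and SNRK2.10, and SNRK2.5 shares 17.9% of its windows with an overlapping gene. OST1, the kinase of guard cell closure, rose from 9.43 ± 0.963 to 35.6 ± 6.23 CPM (SD, n = 3). SNRK2.2, which acts beside OST1 in ABA signaling, was at 131, 135 and 132 CPM in mock and 164, 157 and 141 CPM in salt (adjusted p = 0.0741).

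At the level of transcription factors, 8 of 9 bZIP factors and AFP proteins were up-regulated DEGs. ABF3 (AT4G34000, chromosome 4, 16295334 to 16298285), a bZIP factor that binds ABA-responsive elements, was at 65.7, 76.3 and 55.7 CPM in mock and at 391, 373 and 347 CPM in salt. All salt libraries lay more than 4 times above the highest mock library. AFP1 (AT1G69260, chromosome 1, 26038905 to 26040720), which binds the bZIP factor ABI5 and acts against it, rose 18.8-fold, and ABI5 itself rose 2.83-fold. ABF4 was the exception, with a log2 fold change of 0.80 (adjusted p = 0.00028), and 29.9% of its 100-base windows are shared with an overlapping gene.

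Of the 29 ABA response markers, 27 could be tested, 26 were up-regulated DEGs and ERD1 was the one that was not (0.64, adjusted p = 0.00536). Their median log2 fold change was 4.59, against -0.01 over all genes tested. RD29A (AT5G52310, chromosome 5, 21240717 to 21243644), the desiccation gene used in many reporter lines, was at 40.7, 38.4 and 36.8 CPM in mock and at 6701, 5943 and 4220 CPM in salt. Its mock values were nearly alike, while salt C stood well below the 2 other salt libraries. RD29B (AT5G52300, chromosome 5, 21237021 to 21239531), its neighbor on the chromosome, was at 0.155, 2 and 0.389 CPM in mock and at 238, 187 and 168 CPM in salt. KIN2 (AT5G15970, chromosome 5, 5211719 to 5212743), a cold- and ABA-induced gene, rose from 51.3, 57 and 46.7 CPM to 2025, 1843 and 1387 CPM, with the same order among the salt libraries. LEA7 (AT1G52690, chromosome 1, 19619724 to 19621534), of the late embryogenesis abundant proteins that protect cells during drying, was at 0, 3.7 and 0.0777 CPM in mock and at 733, 744 and 472 CPM in salt. Mock B alone held the counts of LEA7 above the floor, and its change was 9.31 on the log2 scale (SE 0.85, adjusted p = 0.000584). COR15A (AT2G42540, chromosome 2, 17710441 to 17712330), a protein of the chloroplast stroma that guards membranes in the cold, was below the floor in all mock libraries and at 56.8, 33.6 and 28.9 CPM in salt. COR15B had no count in mock and 11.6, 9.49 and 6.41 CPM in salt (24.8% of its windows are shared with an overlapping gene).

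**Figure D1:**
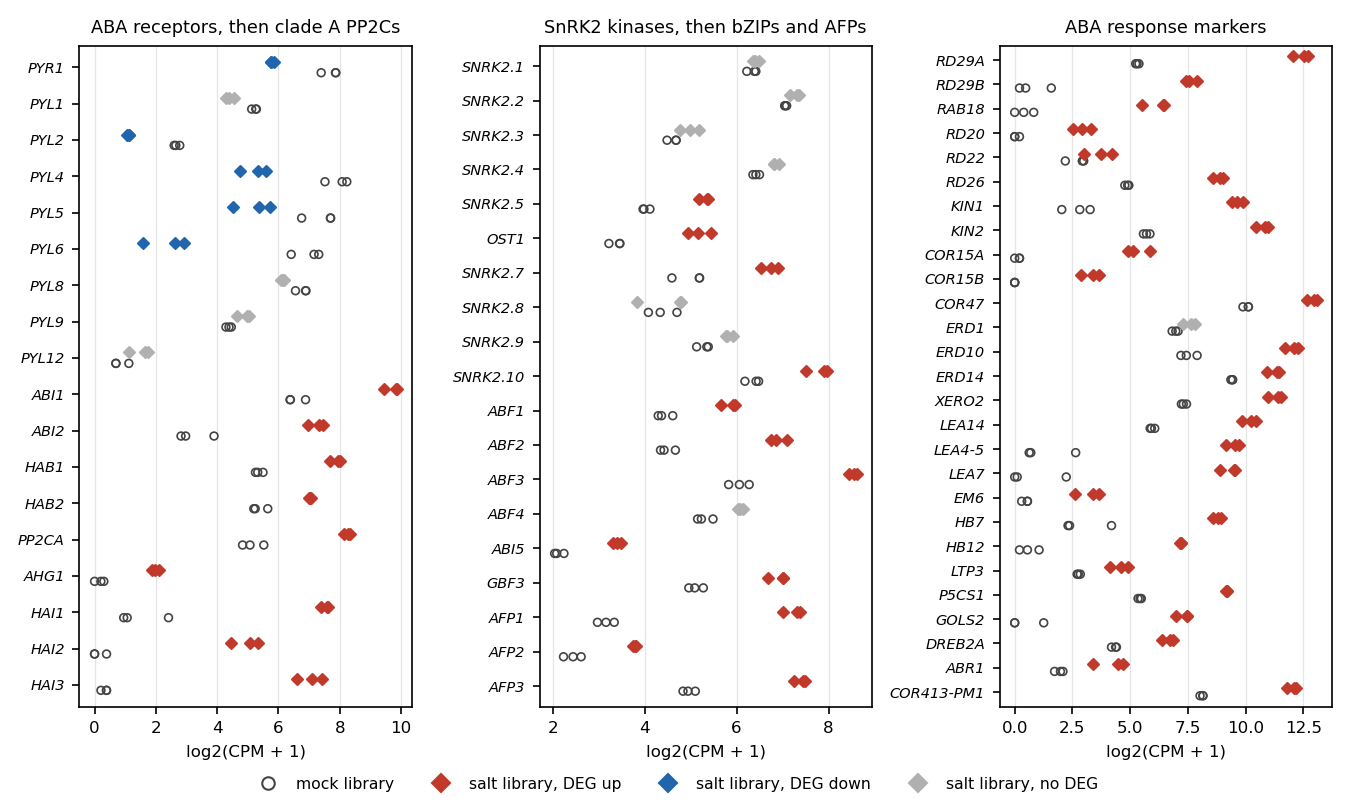
ABA receptors, PP2Cs, SnRK2 kinases, bZIP and AFP factors and ABA response markers, with each library as 1 point. The horizontal axis is log2(CPM + 1), open circles are mock libraries and diamonds are salt libraries colored by the call of the gene. Diamonds lie to the left of the circles for 7 of the 9 receptor genes, and to the right for all 9 PP2Cs and for each of the 27 markers, with 26 of those markers up-regulated DEGs.

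Promoters of 4 of these genes are shown because they carry the letters that the bZIP and DREB classes of factors are known to bind. The windows are the 250 bases before the gene start, from the RefSeq annotation of TAIR10.1, written in the direction of the gene. Capitals mark ACGTG and CCGAC and their reverse complements CACGT and GTCGG, which were searched on both strands. A palindrome CACGTG counts once for each strand. These genes were taken for display after the windows had been searched, to show different arrangements.
RD29A (chr5:21240467-21240716, plus strand): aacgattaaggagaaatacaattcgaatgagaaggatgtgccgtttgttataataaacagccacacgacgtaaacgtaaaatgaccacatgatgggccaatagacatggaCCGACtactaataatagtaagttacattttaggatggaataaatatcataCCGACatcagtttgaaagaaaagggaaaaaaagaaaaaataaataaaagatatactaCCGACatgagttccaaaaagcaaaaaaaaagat
RD29B (chr5:21236771-21237020, plus strand): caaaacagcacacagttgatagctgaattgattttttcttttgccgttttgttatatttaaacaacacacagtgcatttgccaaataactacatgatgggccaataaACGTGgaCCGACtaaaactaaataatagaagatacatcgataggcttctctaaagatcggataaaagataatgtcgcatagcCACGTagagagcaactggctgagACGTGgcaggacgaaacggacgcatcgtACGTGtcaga
LEA7 (chr1:19619474-19619723, plus strand): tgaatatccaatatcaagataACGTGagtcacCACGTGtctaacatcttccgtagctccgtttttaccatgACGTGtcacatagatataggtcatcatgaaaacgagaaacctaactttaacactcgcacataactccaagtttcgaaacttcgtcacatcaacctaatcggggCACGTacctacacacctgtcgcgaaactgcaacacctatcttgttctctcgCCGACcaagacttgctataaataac
COR15A (chr2:17712331-17712580, minus strand): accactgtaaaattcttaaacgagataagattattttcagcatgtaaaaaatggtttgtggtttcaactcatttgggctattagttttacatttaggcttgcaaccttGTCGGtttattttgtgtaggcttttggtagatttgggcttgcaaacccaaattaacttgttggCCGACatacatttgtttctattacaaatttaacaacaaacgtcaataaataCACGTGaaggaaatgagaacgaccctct

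The windows end at the annotated gene start and cover no sequence beyond it. Within its window, RD29A has 3 copies of CCGAC, which start 140, 90 and 33 bases before the gene start, and no ACGTG. RD29B, next to it, has 4 copies of ACGTG and 1 of CCGAC. LEA7 has 5 matches to ACGTG and 1 to CCGAC, and COR15A has 2 of each. Over all 18483 promoters that could be read, ACGTG was found in 23.8% and CCGAC in 13.0%. Among up-regulated DEGs the shares were 32.4% and 15.6%, and among those with a log2 fold change above 4 (n = 179) they were 49.7% and 26.8%. Among down-regulated DEGs with a change of that size (n = 96), 21.9% held ACGTG and 1.04% held CCGAC. The longer core ACGTGTC was in 4.23% of all promoters, in 9.31% of up-regulated DEGs and in 2.48% of down-regulated DEGs. By list, ACGTG was present in 8 of 9 promoters of the bZIP and AFP genes, in 6 of 9 of the PP2Cs, in 14 of 27 of the ABA response markers and in 1 of 9 of the receptors. The shares did not follow the direction of the lists: ACGTG was also in 60.0% of the root hair promoters, 52.9% of those of glucosinolate synthesis and 44.4% of those of iron uptake, lists with more down-regulated than up-regulated DEGs, and in 22.7% of those of suberin and the Casparian strip. A mean GC content of 33.0% in the up-regulated DEGs with the largest changes, against 31.4% in all promoters, moved with these shares, and its part in them was not tested. In windows of 1000 bases, ACGTG was found in 55.3% of all promoters, 67.9% of up-regulated and 56.9% of down-regulated DEGs. CCGAC was found in 38.7%, 40.6% and 30.3% in these longer windows, and in 31.2% of the down-regulated DEGs with the largest changes, so its near absence from that group holds for the 250-base window only. A match is a description of the letters, not a site of binding.

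The promoters of down-regulated genes held another set of letters more often. The W-box core recognized by WRKY factors, searched as TTGACC or TTGACT on both strands, was in 28.6% of all promoters, in 28.2% of up-regulated and in 38.6% of down-regulated DEGs. In the down-regulated DEGs its share was 36.1% for changes between 1 and 2 (log2), 39.2% between 2 and 4 and 59.4% above 4. The shares by list did not follow the direction of the lists either. They were 54.5% for ABA synthesis, breakdown and transport and 50.0% for suberin and the Casparian strip, with up-regulated DEGs only. They were 27.8% for iron uptake, 16.0% for root hair genes, 11.8% for glucosinolate synthesis, 11.1% for ABA receptors and 7.41% for ABA response markers. Mean GC content was 29.9% in the group above 4 and 31.4% in all promoters, and its part was not tested. Promoters of 2 down-regulated DEGs from the group above 4 are shown because they hold this core. Letters of the W-box core (reverse complements GGTCAA and AGTCAA) are in capitals.
MC2 (chr4:12890263-12890512, minus strand): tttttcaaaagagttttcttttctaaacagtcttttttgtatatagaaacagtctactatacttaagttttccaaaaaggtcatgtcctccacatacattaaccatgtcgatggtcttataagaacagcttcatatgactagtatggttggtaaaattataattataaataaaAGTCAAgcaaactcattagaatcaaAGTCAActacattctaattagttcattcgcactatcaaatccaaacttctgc
AT1G05700 (chr1:1709423-1709672, plus strand): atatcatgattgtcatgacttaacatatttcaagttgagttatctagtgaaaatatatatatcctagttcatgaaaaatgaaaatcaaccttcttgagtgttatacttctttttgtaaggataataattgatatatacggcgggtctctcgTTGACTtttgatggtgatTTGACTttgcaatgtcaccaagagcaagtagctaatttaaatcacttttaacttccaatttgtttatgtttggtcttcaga

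MC2 (AT4G25110, chromosome 4, 12887474 to 12890262) encodes metacaspase 2, a cysteine protease linked to cell death, and has 2 such matches. It was at 52.7, 50.9 and 55.5 CPM in mock and at 1.67, 1.07 and 2.21 CPM in salt. The groups were far apart, and the change was -5.01 on the log2 scale (SE 0.19, adjusted p = 1.86e-07). AT1G05700 (chromosome 1, 1709673 to 1713474), annotated as a transmembrane kinase with leucine-rich repeats, also has 2 matches. Its level was 88.2, 96.4 and 94.9 CPM in mock and 2.98, 2.24 and 1.28 CPM in salt, 43-fold lower.

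**Figure D2:**
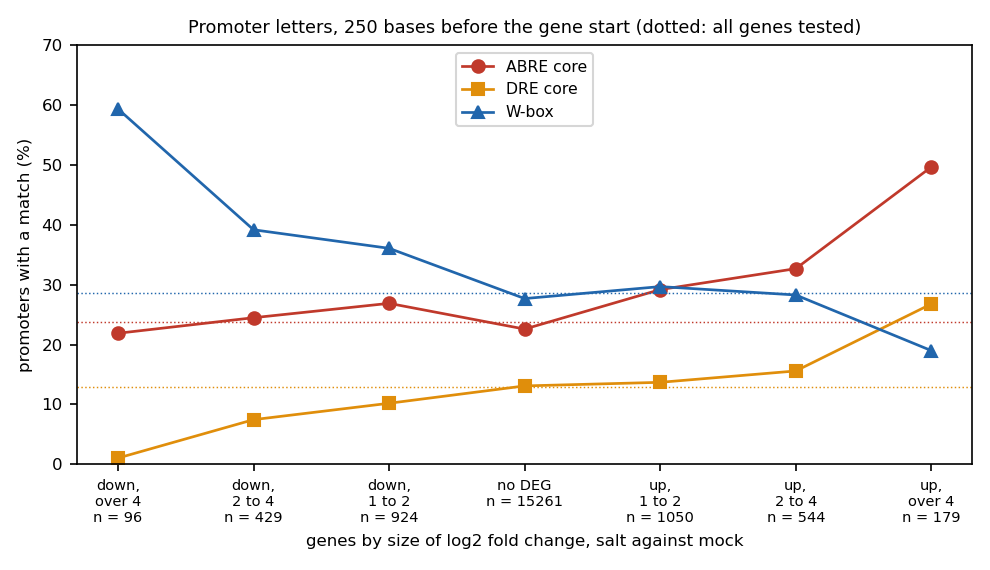
Share of promoters (percent, 250 bases before the gene start) that hold the ABA-responsive core (ACGTG), the DREB core or the W-box core, for tested genes grouped by the size and direction of their log2 fold change, with the number of genes under each group. Dotted lines give the share over all genes tested. The share with the ABA-responsive core reaches 49.7% in the group with the largest increases, and the share with the W-box core reaches 59.4% in that with the largest decreases.

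Past the largest changes of all, the next 12 genes by increase (mean of 5 CPM or more) included several of the genes above (LEA7, HAI3, COR15A). LEA7, LEA4-5 and AT3G15670 encode LEA proteins, and NAC019 and MYB121 encode transcription factors. TSPO (AT2G47770, chromosome 2, 19568464 to 19569507) is a membrane protein of the secretory pathway that binds heme and is induced by ABA. It was at 0, 0.308 and 0.233 CPM in mock, at or below the floor in all 3, and at 180, 153 and 107 CPM in salt. BGLU24 (AT5G28510, chromosome 5, 10480757 to 10484073), a beta-glucosidase, was at 0.466, 0.463 and 0.155 CPM in mock and at 147, 156 and 153 CPM in salt. Its 3 salt libraries were close to each other, and the change was 8.86 on the log2 scale (SE 0.20, adjusted p = 1.5e-08). SWEET4, a sugar transporter, rose from 0.0514 ± 0.089 to 17.9 ± 7.35 CPM (SD, n = 3). AT5G50360, with a von Willebrand factor A domain, had no count in mock and 13.9, 11.7 and 10.3 CPM in salt, at least 30.9-fold higher with the mock mean set to 3 counts per library. MYB121 reached 21.6 ± 11.6 CPM in salt (SD, n = 3), where mock held 1 count over the 3 libraries.

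Ranked by the CPM gained, the list was led by dehydrins and related proteins. COR47 (AT1G20440, chromosome 1, 7084409 to 7086873), a dehydrin, went from 946, 1114 and 1113 CPM in mock to 8717, 8074 and 6553 CPM in salt. ERD10, XERO2 and ERD14, also dehydrins, reached 4209 ± 788, 2553 ± 497 and 2437 ± 423 CPM (SD, n = 3), and COR413-PM1 rose 15.2-fold to 4198 CPM. ADC2 (AT4G34710, chromosome 4, 16560030 to 16563044), arginine decarboxylase of putrescine synthesis, was at 245, 483 and 211 CPM in mock and 2412, 2344 and 1645 CPM in salt, with mock B the highest mock library. FMO GS-OX4, annotated as an oxygenase of glucosinolates, rose from 110 ± 48 to 2443 ± 383 CPM (SD, n = 3).

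Among the 12 genes with the next largest decreases were the kinases AT3G46400 and AT1G05700 and the genes of 2 berberine family enzymes. AT3G46400 (chromosome 3, 17073144 to 17077500), a kinase with leucine-rich repeats, was at 20.5, 15.9 and 20.4 CPM in mock and 0.238, 0.533 and 0.117 CPM in salt. PBS3, needed for salicylic acid synthesis, fell from 25.6, 33.5 and 8.32 CPM to 0.477, 0.426 and 0.466 CPM. TPS13, a terpenoid synthase, was at 40.4, 13 and 28.2 CPM in mock and 0.715, 0.959 and 0 CPM in salt. AT1G26390, a berberine bridge family enzyme, had uneven mock libraries (mean 147 ± 156 CPM, SD, n = 3) and 1.31, 2.13 and 1.75 CPM in salt. Its adjusted p of 0.0225 rose to between 0.086 and 0.102 when any 1 salt library was left out, so that the call was lost. AT5G25260 and AT1G26410 lost their calls without salt C (adjusted p = 0.059 and 0.0623). OCT3, a transporter of organic cations, fell from 29.5 ± 10.4 to 0.821 ± 0.419 CPM (SD, n = 3), and AT5G41300 and AT3G18450 fell 41.3-fold and 39.3-fold.

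By CPM lost, DIN10 (AT5G20250, chromosome 5, 6833564 to 6836862) came first. It encodes a raffinose synthase-like enzyme known from sugar starvation in the dark. Its level was 2221, 786 and 2034 CPM in mock and 183, 216 and 101 CPM in salt. Mock B lay far below the other mock libraries and still above every salt library. AT3G15450, annotated as an aluminum-induced protein, had the same order, with 1977, 747 and 1856 CPM in mock and 384, 447 and 194 CPM in salt, and lost its call without salt A or salt C (adjusted p = 0.0695 and 0.0721). The peroxidase genes AT5G64100 and PRXR1 fell 2.87-fold and were 1.99-fold lower, the second just short of the fold threshold (log2 fold change -0.99, adjusted p = 2.34e-05). PEN3, an exporter that acts in defense at the cell surface, fell from 1087 ± 104 to 308 ± 58.9 CPM (SD, n = 3). HIR2, a membrane protein of the SPFH family, was at 1010, 1086 and 952 CPM in mock and 386, 388 and 149 CPM in salt.

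Most SUMO components tested were not DEGs, as was the case for most genes tested. Of 32 components, 31 were in the table and 27 could be tested. Of the 27, 2 were up-regulated DEGs and 0 down-regulated, beside 9.59% and 7.84% of all genes tested. By the adjusted p alone, which 22.5% of all genes passed as higher and 19.4% as lower, 3 components were higher and 4 lower. Their median log2 fold change was 0.06, against -0.01 over all genes. Both counts past the adjusted p fell below the shares of all genes, the lower one by little. More components were called lower under upper-quartile normalization, so these counts are not read as a result about the set.

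SUMO2 (AT5G55160, chromosome 5, 22383472 to 22384942), which encodes a main SUMO peptide, was at 82, 82.5 and 74.8 CPM in mock and at 62.4, 56.6 and 67.9 CPM in salt (log2 fold change -0.35, adjusted p = 0.0158). All its salt libraries were below all its mock libraries. The call for SUMO2 was lost without mock A or salt B (adjusted p = 0.0566 and 0.0665). SUMO3 (AT5G55170, chromosome 5, 22385257 to 22386223), a divergent peptide linked to defense, was at 5.59, 4.78 and 4.9 CPM in mock and at 6.91, 6.82 and 5.24 CPM in salt (adjusted p = 0.228), and the groups overlapped. SUMO5 was at 0.621, 0.308 and 0.466 CPM in mock and 1.31, 0.426 and 0.117 CPM in salt and was not tested. SUMO6 had at most 0.154 CPM in a library, and SUMO7 and SUMO8 had no count in these 6 libraries, which allows up to 0.233 to 0.466 CPM per library. SUMO4 was not analysed here.

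Among the enzymes that attach SUMO, SAE2 (AT2G21470, chromosome 2, 9198569 to 9202487), the catalytic subunit of the E1, was at 66.8, 70 and 61.8 CPM in mock and at 79.9, 86.9 and 80.2 CPM in salt. All salt libraries were above all mock libraries, by a change of 0.32 on the log2 scale (SE 0.09, adjusted p = 0.0177). That call was lost without mock A, mock C or salt B (adjusted p = 0.0503, 0.134 and 0.117) and under upper-quartile normalization (adjusted p = 0.148). The ligase gene PIAL1 was at 26.9, 24.7 and 20.9 CPM in mock and 16.4, 18.8 and 18.8 CPM in salt, lower by adjusted p = 0.03. Its call was lost without mock A, mock B, salt A or salt B, where the adjusted p was 0.0578 to 0.109, in DESeq2 (adjusted p = 0.064) and after thinning to the smallest library (adjusted p = 0.054). SCE1, the E2 that every conjugation passes through, averaged 92.8 ± 8.6 CPM in mock against 89.8 ± 5.79 CPM in salt, and the main ligase gene SIZ1 averaged 115 ± 3.75 and 125 ± 10.9 CPM (SD, n = 3, adjusted p = 0.722 and 0.323). HPY2, PIAL2 and SAE1a did not pass the test, with log2 fold changes of -0.09, 0.13 and -0.11.

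SAE1b, the second gene for the small E1 subunit, is annotated at 2 near-identical loci that share 96.9% of their 100-base windows. AT5G50580 was at 4.82, 0.463 and 21.5 CPM in mock and 10.5, 9.06 and 19.3 CPM in salt, and AT5G50680 at 12, 15.4 and 0 CPM in mock and 6.2, 5.86 and 0.233 CPM in salt. The split between the loci differed among libraries of 1 group. Summed, they gave 16.8, 15.9 and 21.5 CPM in mock and 16.7, 14.9 and 19.6 CPM in salt, so the levels overlapped (log2 fold change -0.08).

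None of the 8 ULP protease genes passed the test, and their median log2 fold change was 0.00. SPF1 averaged 59.3 ± 4.12 CPM in mock against 64 ± 3.69 CPM in salt, OTS1 averaged 39.2 ± 2.44 and 37 ± 0.878 CPM, and ESD4 averaged 32.9 ± 1.84 and 37.8 ± 2.5 CPM (SD, n = 3). The lowest adjusted p in this family was that of ELS2 (0.0629), at 4.66, 5.55 and 4.74 CPM in mock and 4.17, 2.45 and 2.8 CPM in salt. OTS2 was at 30.2 and 34.6 CPM, SPF2 at 17.5 and 18.3 CPM, ELS1 at 8.39 and 7.98 CPM and FUG1 at 2.68 and 2.01 CPM. The standard error of the log2 fold change was 0.09 for SPF1 and 0.43 for FUG1.

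DeSI proteases held both DEGs of the SUMO system. DeSI1 (AT3G07090, chromosome 3, 2242998 to 2244828) was at 37.4, 46.3 and 39 CPM in mock and at 106, 89.8 and 96.1 CPM in salt. All salt libraries were well above all mock libraries, and the change was 1.25 on the log2 scale (SE 0.11, adjusted p = 2.01e-05). DeSI2b (AT4G25680, chromosome 4, 13087973 to 13090161) rose from 41.5, 41.3 and 41.2 CPM, a narrow range, to 114, 118 and 91.5 CPM, a change of 1.39 on the log2 scale (SE 0.11, adjusted p = 1.16e-05). DeSI3a (AT1G47740, chromosome 1, 17566511 to 17569297) was lower, at 66.7, 66.1 and 71 CPM in mock and 35.3, 45.5 and 50.1 CPM in salt, without overlap. Its change of -0.64 on the log2 scale (SE 0.13, adjusted p = 0.00292) was below the fold threshold. DeSI4a averaged 46.2 ± 2.82 CPM in mock against 36 ± 6.74 CPM in salt (SD, n = 3, adjusted p = 0.0583). DeSI2a, DeSI3b, DeSI3c and DeSI4b did not pass, with log2 fold changes of 0.09, 0.32, -0.30 and 0.06. Another annotated gene overlaps 10.5% of the exon bases of DeSI1 and shares 2.9% of its windows. Such overlap was larger for DeSI2a (24.3% of exon bases and 18.1% of windows) and DeSI3c (23.3% and 25.1%).

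The promoter of DeSI1 is shown because this up-regulated SUMO gene has all 3 of the searched cores, in capitals as before.
DeSI1 (chr3:2244829-2245078, minus strand): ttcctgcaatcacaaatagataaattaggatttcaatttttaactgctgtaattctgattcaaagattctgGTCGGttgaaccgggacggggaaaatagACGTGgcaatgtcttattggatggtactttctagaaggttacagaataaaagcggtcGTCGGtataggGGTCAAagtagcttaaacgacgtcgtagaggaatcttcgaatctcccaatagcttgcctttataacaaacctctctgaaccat

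It has 1 match to ACGTG (151 bases before the gene start), 2 to CCGAC and 1 to the W-box core. Over the 27 SUMO components tested, 8 promoters held ACGTG (29.6%), 5 held CCGAC (18.5%) and 8 held the W-box core (29.6%). Over all genes tested the shares were 23.8%, 13.0% and 28.6%, so these counts are not read as a trait of SUMO promoters.

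**Figure D3:**
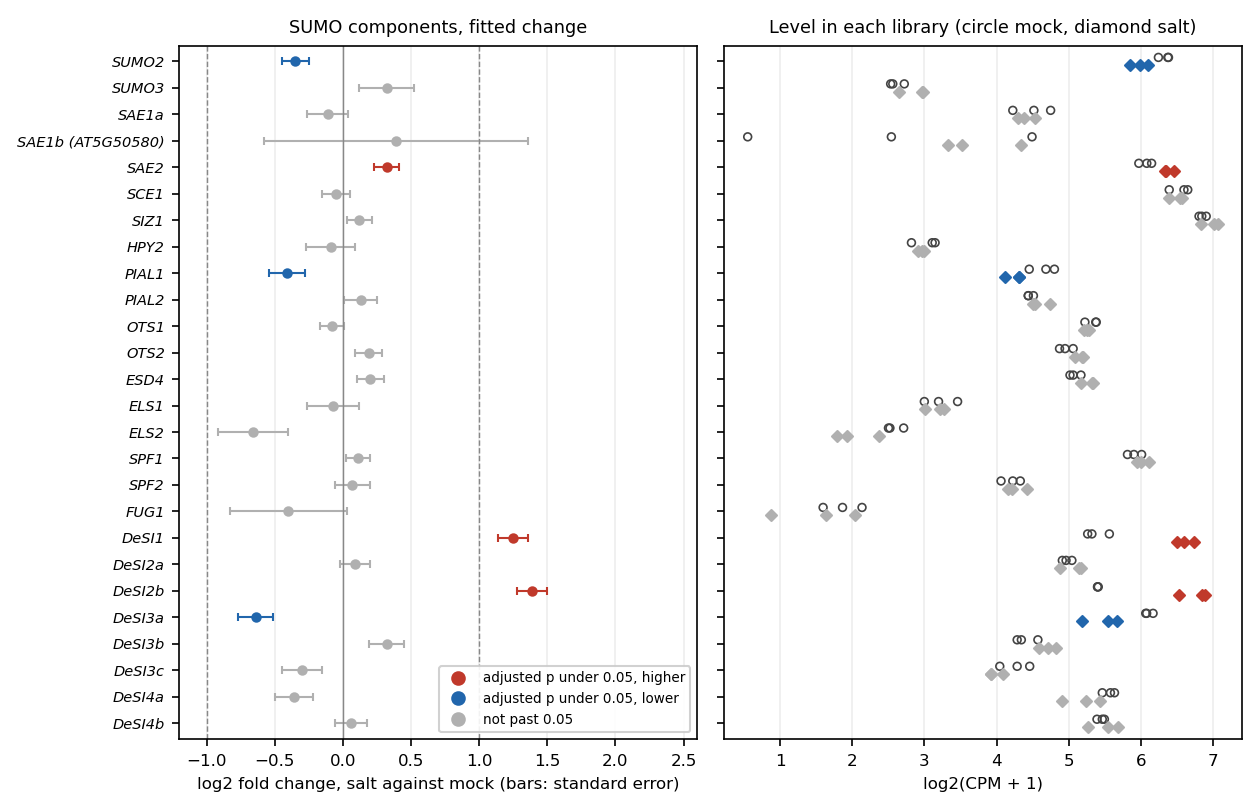
SUMO components tested, with 1 of them not drawn, and with the fitted log2 fold change of salt against mock and its standard error on the left, and the level in each library as log2(CPM + 1) on the right (circles mock, diamonds salt). DeSI1 (1.25) and DeSI2b (1.39) are the 2 components beyond a log2 fold change of 1, and most others lie close to 0.

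Genes of compatible solutes moved in both directions. Of 15 genes of proline and raffinose metabolism, 8 were up-regulated and 3 down-regulated DEGs. PRODH1 (AT3G30775, chromosome 3, 12448636 to 12451556), the dehydrogenase that starts proline breakdown, was at 1250, 624 and 1276 CPM in mock and 263, 266 and 140 CPM in salt. Mock B was the lowest mock library, above all salt libraries. P5CS1, of proline synthesis, rose 13.9-fold, while its paralog P5CS2 had a log2 fold change of 0.11 (adjusted p = 0.446). Galactinol synthase genes, for the first step to raffinose, rose together: GOLS2 (AT1G56600, chromosome 1, 21207537 to 21209635) from 0, 1.39 and 0 CPM to 177, 175 and 125 CPM, GOLS4 by 7.04, GOLS3 by 3.76 and GOLS1 by 1.95 on the log2 scale. The raffinose synthase gene RS5 rose by 2.18, and STS, for a stachyose synthase, fell by 2.09.

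Among 27 transporters of sodium, potassium and chloride, 4 were up-regulated and 4 down-regulated DEGs, counts near the 9.59% and 7.84% of all genes tested, so the values below are of single genes and not of the list. GORK (AT5G37500, chromosome 5, 14889245 to 14895233), an outward potassium channel of root hairs and guard cells, was at 8.23, 7.71 and 7.77 CPM in mock and at 64.7, 66.7 and 58.7 CPM in salt. SKOR (AT3G02850, chromosome 3, 619678 to 623739), the related channel that releases potassium into the xylem, went the other way, from 145, 99 and 128 CPM to 5.24, 7.25 and 11.3 CPM. GORK thus rose 8.02-fold (adjusted p = 1.76e-07) and SKOR fell 15.6-fold (adjusted p = 3.42e-05). SLAH1 (AT1G62280, chromosome 1, 23007044 to 23008610), which takes part in loading chloride into the xylem, fell from 36.5, 26.8 and 40.6 CPM to 1.43, 1.28 and 2.8 CPM. SLAH3 and NPF2.4, also anion transporters of the root, fell 2.24-fold and 4.29-fold. CLC-A (AT5G40890, chromosome 5, 16381314 to 16385424), which moves nitrate into the vacuole, rose from 180 ± 22.5 to 647 ± 49.8 CPM (SD, n = 3).

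Of the genes for sodium transport itself, NHX1, an exchanger at the vacuole, rose from 101, 116 and 86.3 CPM to 239, 214 and 208 CPM, and NHX3 rose 2.98-fold. SOS1, the sodium exporter of the plasma membrane, was at 36.2, 34.8 and 33.6 CPM in mock and 46, 43.4 and 41.1 CPM in salt, higher in all 3 salt libraries, by 0.32 on the log2 scale. HKT1, which retrieves sodium from the xylem, was at 2.18, 2.16 and 2.49 CPM in mock and 1.07, 1.49 and 1.4 CPM in salt (adjusted p = 0.0624). SOS2 and SOS3, regulators of SOS1, did not pass the test (-0.39 on the log2 scale with adjusted p = 0.0673, and 0.14 with 0.316). Without mock B, the up-regulated DEGs of the transport list numbered 7 in place of 4.

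Of 27 aquaporin genes, 4 were up-regulated and 3 down-regulated DEGs, likewise near the shares of all genes, and the median was 0.00. PIP1;2 (AT2G45960, chromosome 2, 18910081 to 18911982), a water channel of the plasma membrane, was at 1609, 1414 and 1572 CPM in mock and 3770, 3771 and 3119 CPM in salt. PIP1;4 rose 4.59-fold from 67.2 ± 3.01 to 308 ± 14.5 CPM (SD, n = 3), and PIP2;5 and TIP2;3, of the plasma membrane and the vacuole, rose by 2.52 and 1.41 on the log2 scale. PIP1;5 and SIP1;2 fell 2.21-fold and 2.48-fold. NIP2;1 fell from 1.24, 1.7 and 4.43 CPM to at most 0.107 CPM in salt, but shares 72.8% of its 100-base windows with another annotated gene and is uncertain.

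The barrier of the endodermis was a group with 1 direction. Of 22 genes of suberin and the Casparian strip, 17 were up-regulated DEGs and 0 down-regulated, with a median log2 fold change of 1.69. MYB41 (AT4G28110, chromosome 4, 13968029 to 13969525), a factor that can drive suberin synthesis, was at 2.33, 2.47 and 2.41 CPM in mock and at 88.3, 91 and 56 CPM in salt. ASFT (AT5G41040, chromosome 5, 16431304 to 16433305), which transfers ferulic acid to suberin, rose from 97.6, 98.8 and 68.5 CPM to 1022, 1092 and 689 CPM. Salt C was the lowest of the salt libraries for both. GPAT5, ABCG6 and CYP86B1, which make and export suberin monomers, rose 6.89-fold, 10.6-fold and 8.37-fold. CASP4 and CASP5, membrane proteins that place the Casparian strip, rose by 1.59 and 1.98 on the log2 scale, and MYB36, which switches on strip formation, by 1.22. CASP1 and CASP2 were higher below the fold threshold (0.82 and 0.72, adjusted p = 0.000356 and 0.00178), and CYP86A1 did not pass (0.35, adjusted p = 0.269). The endodermal regulator SCR was lower (-0.34, adjusted p = 0.00977), so the endodermis markers as a set did not all move alike, although their sum was higher in salt.

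Iron uptake genes were the group with the lowest median, -2.03, with 11 of 18 down-regulated and 1 up-regulated DEG. IRT1 (AT4G19690, chromosome 4, 10707344 to 10709015), the main iron importer of the epidermis, was at 265, 379 and 243 CPM in mock and 67.7, 57.2 and 71 CPM in salt. FRO2 (AT1G01580, chromosome 1, 208995 to 213082), the reductase that prepares iron for it, fell from 99.7, 187 and 88.6 CPM to 13.2, 12.3 and 15.5 CPM. In both genes mock B was highest and the salt libraries were nearly alike. BHLH39 (AT3G56980, chromosome 3, 21086390 to 21087710), a partner of the iron regulator FIT1, fell from 46.4 ± 7.17 to 4.81 ± 0.6 CPM (SD, n = 3), FIT1 itself fell by 1.17 and BHLH100 by 6.24 on the log2 scale. Upstream of them, BTS and PYE did not pass the test (0.01 on the log2 scale with adjusted p = 0.964, and -0.07 with 0.67). The member that rose was FER1 (AT5G01600, chromosome 5, 227953 to 230051), for the iron store ferritin, from 98.8, 118 and 123 CPM to 381, 321 and 301 CPM.

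**Figure D4:**
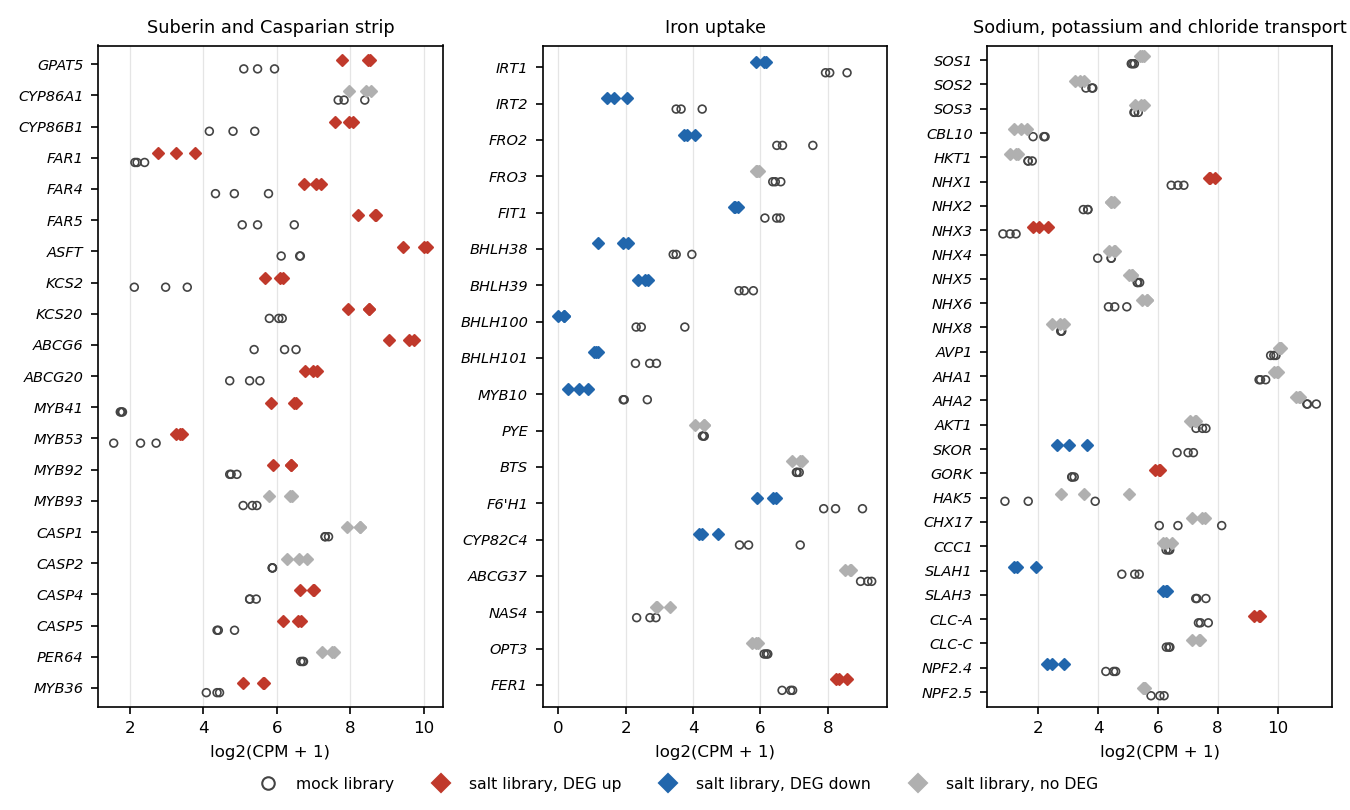
Genes of suberin and the Casparian strip, of iron uptake and of sodium, potassium and chloride transport, with each library as 1 point on an axis of log2(CPM + 1) (circles mock, diamonds salt, colored by the call of the gene). In the left panel, where 1 up-regulated DEG is not drawn, 17 of the 22 genes tested are up-regulated DEGs, in the middle panel 11 of 18 are down-regulated, and in the right panel 4 of 27 are called in each direction.

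Uptake of other nutrients showed opposite calls within the list, 6 of 23 up-regulated and 9 down-regulated. NRT1.1 (AT1G12110, chromosome 1, 4105223 to 4109601), a nitrate transporter and sensor, was at 291, 577 and 301 CPM in mock and 1205, 1097 and 1243 CPM in salt, with mock B highest. NRT2.1 (AT1G08090, chromosome 1, 2524023 to 2526322), the high-affinity importer, fell from 25.9, 48.9 and 32.3 CPM to 0.477, 1.81 and 2.68 CPM. NRT1.5, which loads nitrate into the xylem, fell from 995 ± 189 to 235 ± 36.8 CPM (SD, n = 3), and NRT1.8, which unloads it, fell 6.43-fold, a call lost without salt C (adjusted p = 0.0615). The ammonium importers AMT1;2 and AMT1;3 fell 3.37-fold and 3.3-fold. Phosphate transport was lower at PHT1;1 (from 841 to 224 CPM, 30.4% of its windows shared with PHT1;2) and at the xylem loader PHO1 (from 470 to 165 CPM). In sulfate assimilation, by contrast, the reductase genes APR2 and APR3 rose 4.25-fold and 3.3-fold, although APR2 shares 41.5% of its windows with an overlapping gene. Leaving out mock B moved the up-regulated DEGs of this list from 6 to 10.

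Stress transcription factors were mostly up-regulated, with 24 DEGs among the 28 tested, 0 down-regulated DEGs and a median of 2.27. HB12 (AT3G61890, chromosome 3, 22914154 to 22915393), an ABA-induced homeodomain factor, was at 0.466, 1.08 and 0.155 CPM in mock and 146, 148 and 144 CPM in salt. Its salt libraries were nearly alike. CBF4 (AT5G51990, chromosome 5, 21116877 to 21117860), the drought member of the CBF family, was at 0, 0 and 0.0777 CPM in mock and 4.53, 5.44 and 6.76 CPM in salt, and CBF1 had no count in mock and 4.52 ± 0.654 CPM in salt (SD, n = 3). MYB102 and MYB74 rose by 7.32 and 3.72 on the log2 scale. AZF1, a zinc finger repressor, was lower below the fold threshold (-0.86, adjusted p = 0.00521).

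Heat shock genes were up-regulated DEGs in 10 of 15 cases, beside 9.59% of all genes tested. HSFA6B (AT3G22830, chromosome 3, 8078789 to 8081059), a heat shock factor that acts in the ABA response, was at 2.8, 4.16 and 3.19 CPM in mock and 237, 238 and 202 CPM in salt, 66.7-fold higher. HSFA7A, of the same class, was the 1 down-regulated DEG and fell from 57.9 ± 17.7 to 15.8 ± 2.98 CPM (SD, n = 3). The chaperone HSP101 rose by 1.38 on the log2 scale. Of 18 genes of reactive oxygen production and scavenging, 3 were up-regulated and 4 down-regulated, beside 9.59% and 7.84% of all genes tested. NADPH oxidase genes went both ways: RBOHI, RBOHG, RBOHB and RBOHA fell 7-fold, 4.62-fold, 3.3-fold and 2.9-fold, and RBOHE rose 3.01-fold. RBOHD, the member best known from defense, had a log2 fold change of -0.19 (adjusted p = 0.589). The catalase gene CAT1 rose by 1.37, and APX2, a peroxidase that was below the floor in mock, reached 3.75 ± 0.959 CPM (SD, n = 3).

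In the hormone pathways beside ABA, the up-regulated and down-regulated DEGs numbered 7 and 1 of 19 genes for jasmonate, 5 and 2 of 14 for ethylene, 4 and 1 of 11 for gibberellin, 2 and 4 of 15 for cytokinin and 2 and 0 of 20 for auxin, beside 9.59% and 7.84% of all genes tested. The count for auxin is near that background and says nothing of the list. CYP94B3 (AT3G48520, chromosome 3, 17974853 to 17976774), which inactivates jasmonate, was at 6.84, 10.3 and 7.07 CPM in mock and 160, 223 and 120 CPM in salt. AOC2, of jasmonate synthesis, was at or below the floor in each mock library and reached 7.48 ± 3.67 CPM in salt (SD, n = 3, adjusted p = 0.000262). The jasmonate repressor JAZ1 rose 3.84-fold and JAZ4 fell 3.94-fold. ACS7, for the step that makes the ethylene precursor, rose from 4.19, 4.01 and 4.04 CPM to 44.6, 44.1 and 32.4 CPM, and ACO3 and ACO1, for the last step, fell by 2.24 and 1.41 on the log2 scale. GA2OX6, which inactivates gibberellin, rose from 19.6 ± 5.05 to 138 ± 36.3 CPM (SD, n = 3), and GA3OX1, which makes the active form, fell by 1.21. GA20OX2, also of gibberellin synthesis, went the other way and rose 3.45-fold (adjusted p = 0.00169). Auxin genes called were IAA2 and IAA19 (1.16 and 1.23), both repressors of the response. IPT3 (AT3G63110, chromosome 3, 23317971 to 23319636), of cytokinin synthesis, was at 6.53, 9.4 and 6.76 CPM in mock and 0.596, 0.533 and 0.816 CPM in salt, and IPT5 and IPT7 fell 2.86-fold and 2.36-fold. ARR16, a repressor of the cytokinin response, rose 6.42-fold. Cytokinin oxidase genes went both ways, with CKX4 19.4-fold lower and CKX5 3.26-fold higher (16.2% of the windows of CKX5 shared with an overlapping gene).

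Of 19 defense markers, 5 were up-regulated and 2 down-regulated DEGs, beside 9.59% and 7.84% of all genes tested. The count of down-regulated DEGs is near that background, and the median was -0.19. CYP81F2 (AT5G57220, chromosome 5, 23187840 to 23189902), which modifies indole glucosinolates in defense, was at 164, 138 and 93.7 CPM in mock and 5.96, 5.01 and 4.43 CPM in salt, 25.7-fold lower. FRK1, a receptor-like kinase induced by flagellin, rose 3.54-fold, and PHI-1, a phosphate-induced protein, rose 6.63-fold. WRKY70 was at 41, 60.4 and 19.4 CPM in mock and 8.94, 8.1 and 4.66 CPM in salt, and lost its call without salt C (adjusted p = 0.0615). In the list of glucosinolate synthesis 7 of 17 were down-regulated and 1 up-regulated, beside 7.84% and 9.59% of all genes tested. MYB28, the regulator of aliphatic glucosinolates, fell from 12.3, 21 and 13 CPM to 1.19, 1.28 and 2.33 CPM, and MYB34, of the indole branch, rose 2.42-fold. Levels of the aliphatic genes were uneven in mock: CYP83A1 was at 3.11, 28.2 and 8.55 CPM, with mock B highest, against 1.43, 0.746 and 1.51 CPM in salt. Without any 1 salt library, CYP83A1, CYP79F2 and MAM1 lost their calls (adjusted p = 0.0841 to 0.131) and the down-regulated DEGs of the list numbered 3 to 4. With no count filter CYP83A1 and CYP79F2 lost theirs too (adjusted p = 0.0751 and 0.0624), and CYP83A1 also after thinning to the smallest library (0.0626).

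Genes of the cell wall moved within families in opposite directions. Of 28 expansin and xyloglucan genes, 12 were up-regulated and 9 down-regulated DEGs. EXPA1 (AT1G69530, chromosome 1, 26141726 to 26143538), an expansin that loosens walls, was at 9.17, 16.3 and 10.6 CPM in mock and 115, 121 and 138 CPM in salt, and EXPA10 and EXLA3 rose 20-fold and 43.3-fold. XTH23, of an enzyme that cuts and rejoins xyloglucan, rose 11.8-fold, while its relative XTH15 fell 9.34-fold (25.5% of its windows shared with an overlapping gene). None of 10 genes of cellulose synthesis was a DEG, with CESA1, of the primary wall, at a log2 fold change of 0.07. Of 25 root hair genes, 4 were down-regulated DEGs (RHS13, RHS19, XTH26 and PRP3) and 0 up-regulated, beside 7.84% and 9.59% of all genes tested. RHS13 was at 49.9, 74.3 and 60.6 CPM in mock and 5.24, 8.74 and 16.9 CPM in salt, with salt C closest to mock. Without salt C the down-regulated DEGs of this list numbered 11, and PRP3 lost its call without mock B, salt A or salt B (adjusted p = 0.0554, 0.0573 and 0.0945) and with no count filter (adjusted p = 0.066). GL2, a repressor of hair cell fate, was at 22.7, 20.2 and 20.7 CPM in mock and 1.07, 3.3 and 8.39 CPM in salt.

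Cell cycle genes were lower by small amounts, with a median log2 fold change of -0.42. By the DEG rule 1 of 29 was called in each direction, KRP1 and CYCD3;1, and by the adjusted p alone 12 were lower and 1 higher, beside 19.4% and 22.5% of all genes. CYCD3;1, a cyclin that promotes division, fell from 8.97 ± 0.985 to 3.11 ± 0.872 CPM (SD, n = 3), and KRP1, an inhibitor of cyclin-dependent kinases, rose from 3.21 ± 0.907 to 10 ± 1.97 CPM. PCNA1, of DNA replication, was at 29.2, 31.5 and 29.2 CPM in mock and 13.7, 16.6 and 16 CPM in salt, short of the fold threshold (adjusted p = 0.000173). Among 11 clock genes 1 was an up-regulated DEG, a count near the 9.59% of all genes tested. It was CCA1, a morning factor, at 34.6, 32.2 and 35.9 CPM in mock and 119, 106 and 73.6 CPM in salt.

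**Figure D5:**
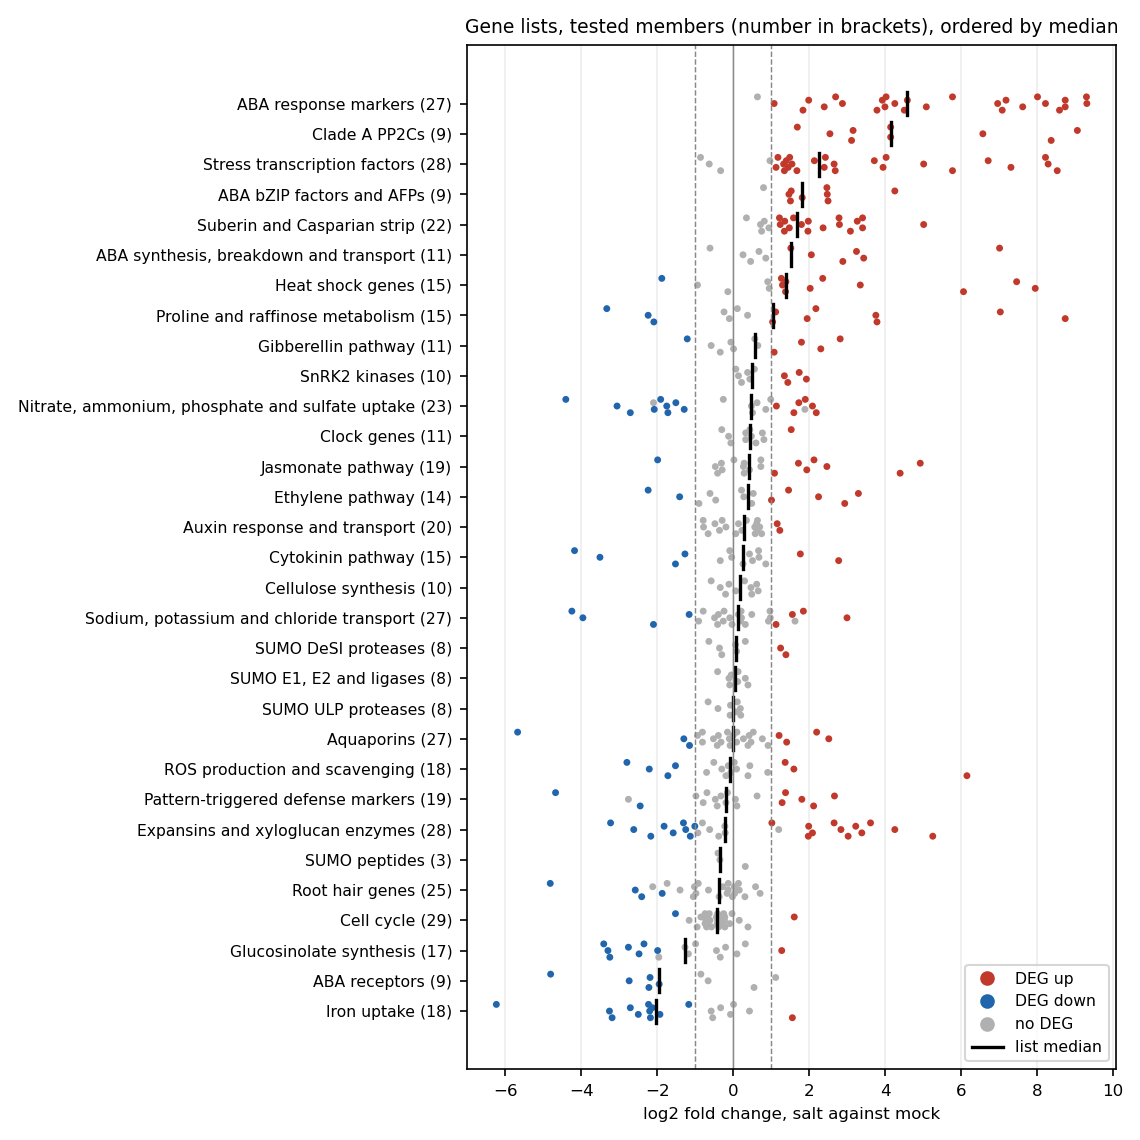
Log2 fold change of salt against mock for the tested members of 31 gene lists, ordered by their median (black bar), with each gene as 1 point colored by its call and dashed lines at the fold threshold. ABA response markers and PP2Cs have the highest medians (4.59 and 4.15), and iron uptake genes and ABA receptors the lowest (-2.03 and -1.95).

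The response to salt was set beside that to mannitol (300 mM, on plates, 3 hours), an osmotic treatment without sodium in the same series. The experiments have separate controls, and the treatment and the medium cannot be told apart. The columns used as the mannitol control are named as a second mock group and were assigned to it by elimination. A term for the difference between the responses, fitted over 12 libraries, had an adjusted p under 0.05 for 19.5% of the genes tested, 11.5% with the higher value in salt and 8.0% with the lower. For ABA response markers 12 of 27 had a higher value in salt and 0 a lower one. RD29A, for example, had log2 fold changes of 7.19 in salt and 3.58 in mannitol (adjusted p of the difference = 1.27e-07), and KIN1 of 7.09 and 2.46 (adjusted p = 2.55e-06). RD29B had 8.02 and 8.69 (adjusted p = 0.615), a difference that did not pass the test. Receptors had a lower value in salt in 4 of 9 cases, PYR1, PYL2, PYL5 and PYL6.

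Root hair genes had a higher value in salt than in mannitol in 10 of 25 cases and a lower one in 0 (RSL4, a regulator of hair growth, had 0.31 and -0.91, adjusted p = 0.00203), and cellulose genes in 6 of 10 and 0. Suberin and Casparian strip genes did so in 10 and 0 of 22. In the defense list the value was lower in salt in 8 of 19 and higher in 0: for CYP81F2 the difference was -6.18 on the log2 scale (adjusted p = 7.82e-08), WRKY33, a regulator of camalexin synthesis, had -0.69 in salt and 1.68 in mannitol (adjusted p = 4.06e-05), and WRKY70 had -2.45 and 1.99 (adjusted p = 0.00462). DIN10 had -3.33 in salt and 0.76 in mannitol (adjusted p = 0.00433). SLAH3 had -1.16 and -0.11 (adjusted p = 0.00173), AMT1;3 -1.72 and -3.52 (adjusted p = 4.86e-06), and SOS1 0.32 and -0.21 (adjusted p = 0.00691). Among the 27 SUMO components tested, 3 differed, beside 19.5% of all genes tested, so this count is not read as a result about the set. They were DeSI1 (1.25 in salt and 0.48 in mannitol, adjusted p = 0.00122), SUMO3 (0.32 and -0.67, adjusted p = 0.0334) and DeSI4a (-0.36 and 0.35, adjusted p = 0.00691). DeSI2b had 1.39 and 1.29 (adjusted p = 0.694).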

How the data were processed

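The authors deposited a table of whole-number counts per gene, not normalized, made with Trimmomatic (trimming), mapping against Araport11, Picard (removal of duplicates) and HTSeq (counting). Tool versions are not given in the sources used here. Libraries were nonstranded, so reads of overlapping genes cannot be told apart. Columns of the salt, mock, flg22 and mannitol groups were assigned to samples by their titles, and 0 columns were left unused. Columns named as a second mock group match no title. They were taken as the mannitol control, the only other untreated group, and were not assigned to single samples. Counts of the 6 libraries were fitted in edgeR 4.0.16 (R 4.3.3) by a robust quasi-likelihood model after TMM scaling and removal of low genes (filterByExpr, minimum count 10), with Benjamini-Hochberg adjustment over 18484 genes. A DEG passed an adjusted p-value of 0.05 and moved by 1 or more on the log2 scale. SUMO components were called without the fold threshold. The difference from mannitol was a term in a fit of 12 libraries. Every adjusted p-value of a gene in the text is from these edgeR fits unless DESeq2 is named.

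The 31 gene lists (576 genes) came from textbook knowledge, and the members, lists and tests were chosen with earlier results of these data known. Named genes were ranks 4 to 15 by log2 fold change in each direction with a mean of at least 5 CPM and no overlap between the groups, the 10 largest gains and losses of CPM, up to 4 DEGs of largest change and the most abundant member of each list, every SUMO component, and the members behind counts of 5 or fewer. Not every gene picked by these rules is named in the text. Some further list members were named after their values were seen, for their known roles. Gene models and promoters are those of RefSeq for TAIR10.1. Windows of 100 bases found more than once mark shared sequence. Results of 2 list members are not reported here, although the counts of their lists include them. Python 3.11.15 with pandas 2.3.3, scipy 1.17.1 and matplotlib 3.10.9 was used for tables, permutation tests and figures. Alternatives were DESeq2 1.42.0, other normalizations and filters, a fit of all 15 libraries, thinning, a replicate block and leaving out each library.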

Additional observations from a re-analysis of the deposited data

How the results depend on the processing

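The numbers of DEGs stayed within 1.5 times those reported under all alternatives but 1. Without the fold threshold, 4154 genes were higher and 3592 lower. Leaving out 1 library gave 1595 to 1966 up-regulated and 1341 to 1544 down-regulated DEGs. The ABA response markers among the up-regulated DEGs numbered 16 in place of 26 when a gene needed 10 counts in every library, since that filter tests fewer genes. SUMO components called lower numbered 7 under upper-quartile normalization and 0 with a fold threshold, in place of 4, and 2 to 5 when 1 library was left out (2 without mock A or without salt B). Those called higher numbered 2 to 4.

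Some small changes turned their sign. Under upper-quartile normalization the log2 fold changes were -0.03 for SIZ1 and SPF1, -0.08 for CESA1 and SPF2, -0.02 for PIAL2, -0.06 for DeSI2a and -0.10 for DeSI4b. Thinned to the smallest library, ELS1 was at 0.02 and SPF2 at -0.07. When 1 library was left out, the range was -0.23 to 0.01 for SAE1a, -0.12 to 2.26 for SAE1b, -0.17 to 0.06 for ELS1, -0.05 to 0.14 for SPF2, -0.06 to 0.17 for DeSI4b and -0.12 to 0.01 for SCE1, with the sign turned without mock B (SAE1a, SAE1b, ELS1), mock C or salt A (SPF2, DeSI4b) or salt C (SAE1b, SCE1). With the 2 loci summed, an alternative chosen after seeing the data, SAE1b was at -0.08. None of these genes passed the test in the comparison as reported, and the cause was not tested. The windows of 1000 bases were also chosen after seeing the data.

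Over 180 named genes and SUMO components, 2357 of 2457 values kept their direction and their side of the threshold, 44 lost and 38 gained a call. Replicate letters did not pair the samples: deviations of same-lettered libraries correlated at 0.025 (A), -0.04 (B) and 0.087 (C), and a fit with the replicate block gave 1746 up-regulated and 1416 down-regulated DEGs. Among named genes, AT3G15450 and JAZ7 were not called under the block (adjusted p = 0.0745 and 0.0576). Groups of 3 limit every call.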

Other observations

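Among markers of root cell types, some genes that no comparison above turns on also changed. WOX5 (AT3G11260, chromosome 3, 3527280 to 3528440), expressed in the quiescent center of the root tip, was at 2.02, 1.54 and 1.4 CPM in mock and 5.48, 6.71 and 6.06 CPM in salt. It rose 3.68-fold, while the summed level of the 3 meristem markers was 23.8, 27.9 and 29.8 CPM in mock and 23.4, 26.9 and 31.2 CPM in salt, and these overlap. SUC2 (AT1G22710, chromosome 1, 8030587 to 8033156), the sucrose transporter of phloem companion cells, rose from 51.3, 59.2 and 51.4 CPM to 127, 101 and 122 CPM, and the phloem regulator APL was lower (log2 fold change -0.71, adjusted p = 0.0206). For the cortex marker CO2 the levels were 2.62 to 3.89 CPM in mock and 1.91 to 2.8 CPM in salt. The 3 root cap genes summed to 25.7 to 30.7 CPM in mock and 26.9 to 36.9 CPM in salt. Markers of 1 cell type did not move together, and whether the share of any cell type differed was not tested.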
